A study of Mus musculus with 12 samples.

Results

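Mrap2 encodes melanocortin receptor accessory protein 2, and its transcript was abundant in the stromal vascular fraction (SVF) of 12-month-old Pdgfrb-KO mice while it was at or near 0 in control SVF of either age. It is 1 gene of the 55536 listed, and it was chosen by its values in these same libraries, chiefly by the contrast between Pdgfrb-KO and 12-month-old control SVF. Its own levels are therefore given as a description, with no test. The SVF is what is left of a fat depot once the floating adipocytes are removed, and it holds adipocyte progenitor, mural, endothelial and immune cells. Polyadenylated RNA of the inguinal SVF was sequenced from 12 male mice, 4 per group, in a study that asked how Pdgfrb, a receptor tyrosine kinase of mural cells and progenitors, bears on the loss of beige fat with age.

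The Pdgfrb-KO mice were 12 months old and carried the Pdgfrb fl/fl allele with the tamoxifen-inducible driver Sma-CreERT2 and an R26 reporter, and they had received tamoxifen on 2 consecutive days. The 12-month-old and the 2-month-old controls are labelled wild type, whereas the methods of the study describe a control line with the same driver and reporter but without the floxed allele. A figure legend of the study, however, names the 12-month-old control mice of this comparison Sma-Control, which is that line. This conflicts with the label. Whether the 2-month-old controls carried the driver, and whether any sequenced control received tamoxifen, is not explicit. The Pdgfrb-KO profiles were compared with the 12-month-old control data of the age comparison. Whether they were sequenced together is not given in the sources used here. Effects of Pdgfrb loss, driver, tamoxifen, alleles of a mixed strain background and sequencing run therefore cannot be told apart. All mice were of mixed C57BL6/J-129SV background and were kept at room temperature. The Sma promoter is active in vascular smooth muscle throughout the body, and the SVF was not sorted, so cells without recombination were sequenced together with recombined ones. Every library stems from a mouse of its own, by its label.

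MRAP2 is a small protein that crosses the membrane once and travels with G protein-coupled receptors. It is best known for its work with the melanocortin 4 receptor in the hypothalamus, where melanocortin peptides made from Pomc restrain food intake and the receptor raises cAMP, and mice that lack Mrap2 become obese. Its relative MRAP carries the ACTH receptor to the cell surface in the adrenal cortex. MRAP2 has also been linked to the prokineticin, ghrelin, orexin and melanin-concentrating hormone receptors, and its transcript is usually found in brain, adrenal and pancreatic islet.

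On GRCm38 the gene (ENSMUSG00000042761) spans 87144306 to 87184045 of chromosome 9 on the plus strand, 39.7 kb. GENCODE lists 3 transcripts, all of them protein coding, and 6 merged exons of 2257 bases in all. No other annotated gene overlaps it. The 250 bases before its annotated start are shown because the transcript appears in 1 group of mice only. Gene counts do not tell where the transcript of these libraries began. It is the RefSeq sequence of GRCm38.p6 at chr9:87144056-87144305, plus strand, read towards the gene, with CpG dinucleotides in capitals.
Mrap2 promoter: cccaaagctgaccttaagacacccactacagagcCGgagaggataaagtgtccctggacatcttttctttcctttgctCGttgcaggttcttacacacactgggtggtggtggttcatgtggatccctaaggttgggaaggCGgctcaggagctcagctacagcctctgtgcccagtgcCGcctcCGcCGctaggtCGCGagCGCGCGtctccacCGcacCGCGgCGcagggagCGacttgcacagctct
Of its 16 CpG dinucleotides, 14 lie in the 125 bases next to the start and 2 in the 125 bases farther away. Its GC content was 60.0%, above that of 72.4% of 27025 promoters of the same length, and its observed over expected CpG ratio was 0.71, above that of 73.9% of them. Motifs were searched on both strands. The gamma-activated sequence TTCNNNGAA, which STAT factors bind, had 0 matches here and is held by 7.18% of all promoters. The full cAMP response element TGACGTCA had 0 matches (1.62% of all promoters), as did its core TGACG (17.9%), which lies within the full element, and the AP-1 element TGANTCA (6.87%). The TATA box TATAAA (13%), the GC box GGGCGG (32.9%), the CCAAT box (34.5%) and the E-box CACGTG (6.05%) were not in this window either. These counts say only which letters the window holds.

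The values are gene counts that the authors divided by a size factor for each library and rounded to whole numbers, here called normalized counts. They summed to between 19.6 and 21.9 M in Pdgfrb-KO libraries, 19.9 and 20.6 M in 12-month-old controls and 20.3 and 21.3 M in 2-month-old controls. The counts behind them, estimated from the gaps and doublings that the division leaves in low values, were 13.8 to 19.97 M in Pdgfrb-KO, 21.0 to 29.0 M in 12-month-old and 21.4 to 24.8 M in 2-month-old control libraries, so the Pdgfrb-KO libraries were the shallower ones. For Pdgfrb-KO replicate 4 a size factor of 2.036 described the low values almost as well as the estimate of 1.018, and would mean 2 times as many counts. The depth of replicate 4 is therefore not settled. The fit was poorest for Pdgfrb-KO replicate 1, with a deviance (misfit) of 1457.9 against 132.2 to 267.3 in the other libraries. Its 13.8 M, the lowest estimate, is less certain for that reason. Progenitor markers were abundant in every library (summed normalized counts of 10 genes, including Pdgfra and Dpp4, of 77695 to 84949 in Pdgfrb-KO, 93724 to 118860 in 12-month-old and 59092 to 75846 in 2-month-old controls). Of the 9 mature adipocyte markers, Fabp4, which endothelial and progenitor cells also express, had 53346 to 113632 normalized counts in Pdgfrb-KO, 53371 to 97938 in 12-month-old and 51647 to 69650 in 2-month-old control libraries. The more specific Adipoq had 322 to 485, 311 to 453 and 121 to 150 in the same groups. Between Pdgfrb-KO and 12-month-old control SVF, limma on log2(value + 1) with Benjamini-Hochberg adjustment placed 1539 of 16344 tested genes (9.42%) past an adjusted p of 0.05, of which 810 (4.96%) were higher and 729 (4.46%) lower. That number was 889 without Pdgfrb-KO replicate 1, and 895, 885 and 859 without 12-month-old control replicate 1, 2 or 3. Between 12 and 2 months in controls, 3727 of 16399 genes (22.7%) passed, 1853 (11.3%) higher and 1874 (11.4%) lower, and it was 2454 without 2-month-old replicate 3 and 2356 without replicate 4.

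Mrap2 had 765, 750, 524 and 566 normalized counts in the 4 Pdgfrb-KO libraries, against 1, 0, 1 and 0 in the 12-month-old controls and 8, 0, 0 and 0 in the 2-month-old controls. The lowest Pdgfrb-KO library was thus far above the highest of the 8 control libraries, and the groups did not overlap. The mean was 651 ± 124 in Pdgfrb-KO SVF, 0.5 ± 0.577 in 12-month-old and 2.0 ± 4.0 in 2-month-old control SVF (SD, n = 4 each). As background, all 4 Pdgfrb-KO libraries were above all 4 of the 12-month-old controls in 9.05% of the genes tested and below them in 8.06%, and they were above all 8 controls in 2.23% of the 55536 genes listed.

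**Figure D1:**
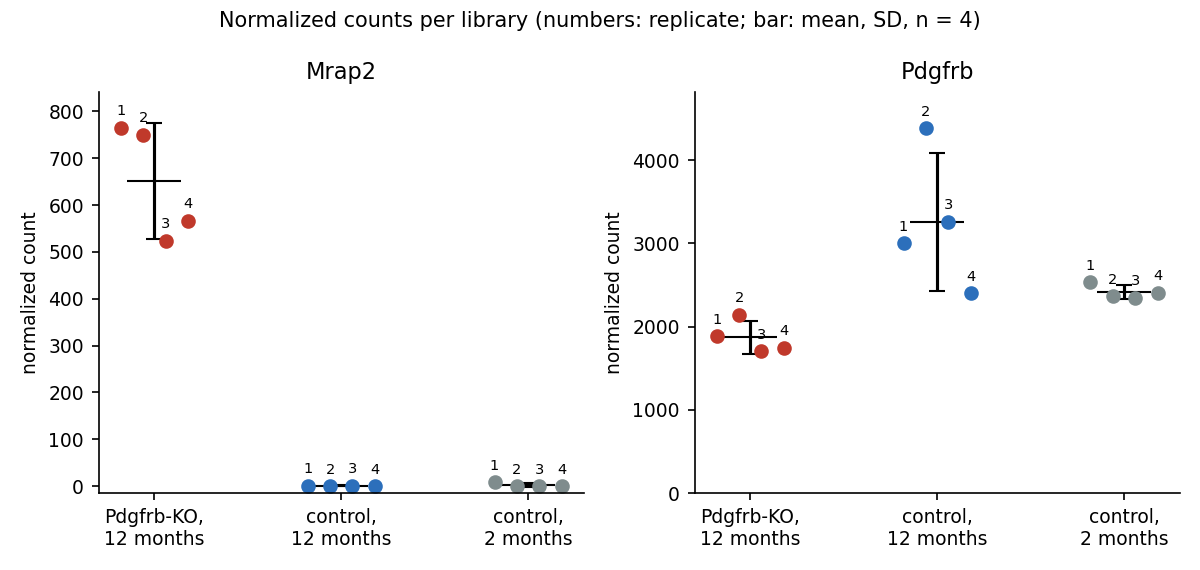
Normalized counts of Mrap2 and of Pdgfrb (vertical axes) in each library of the 3 groups, with replicate numbers beside the points and the mean and SD (n = 4) as bars. Mrap2 lay between 524 and 765 in Pdgfrb-KO SVF and between 0 and 8 in the 8 control libraries, while Pdgfrb lay between 1707 and 2145 in Pdgfrb-KO and between 2349 and 4380 in control libraries.

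The counts behind these values were worked back from the values and the estimated size factors, so they add no separate evidence. The 4 Pdgfrb-KO libraries held an estimated 482, 537, 432 and 576 counts of Mrap2 (the last if the size factor of replicate 4 was 1.018), together 2027. The 12-month-old controls held 2 or 3 in all, since rounding leaves 1 count undecided, and the 2-month-old controls held 8, every one in replicate 1. Per unit of size factor the ratio of Pdgfrb-KO to 12-month-old control was 1520 (95% exact conditional interval 420 to 12560) with 2 counts and 1013 (346 to 4917) with 3, and the ratio to the 2-month-old control was 365 (185 to 846). Such intervals cover counting error only and not the spread between mice. They describe the values that chose Mrap2 and test nothing. In the libraries at 0, the limit that a count of 0 allows (3 counts) is 2.61 and 2.67 normalized counts in 12-month-old replicates 2 and 4 and between 2.51 and 2.58 in 2-month-old replicates 2 to 4. On the log2(value + 1) scale, which understates changes of low values, the difference between Pdgfrb-KO and 12-month-old control was 8.83.

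Within the Pdgfrb-KO group the coefficient of variation was 19%. Replicates 1 and 2, at 765 and 750, stood above replicates 3 and 4, at 524 and 566. These pairs were also the most alike of the group across genes in general. The chi-square of estimated counts per degree of freedom was 17.94 and 21.81 within them, and 41.33 to 62.66 for the other pairs. The split is thus not particular to Mrap2, and its source was not tested. Replicates 1 and 2 were also the 2 with the most Pdgfrb in that group, at 1882 and 2145 against 1707 and 1749, but 4 libraries are too few to relate the genes. Across all 12 libraries Mrap2 forms separate clusters, near 0 and above 500, so no correlation with other genes was computed.

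Age did not separate the control libraries. The difference between 12 and 2 months was -0.29 on the log2(value + 1) scale, smaller than the SD of 1.58 among the 2-month-old libraries, and it was 0.50 without 2-month-old replicate 1, which alone had more than 1 normalized count. The order of the group means was Pdgfrb-KO, then 2-month-old control, then 12-month-old control, and the controls overlapped.

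Per kilobase of merged exons, Mrap2 reached 288.5 ± 55.0 normalized counts in Pdgfrb-KO SVF, against 0.222 ± 0.256 in 12-month-old and 0.886 ± 1.77 in 2-month-old control SVF (SD, n = 4). Of the 28991 genes above 0 in Pdgfrb-KO SVF, 87.2% had a lower mean level per kilobase. In Pdgfrb-KO SVF, Pdgfrb itself had a level of 341.5 ± 36.1 per kilobase, and the neighbour Cyb5r4 had 140 ± 7.15. Mrap, the other gene of the family, had a level of 21.5 ± 6.26 per kilobase in Pdgfrb-KO, 17.2 ± 3.84 in 12-month-old and 9.80 ± 3.33 in 2-month-old control SVF. By mean normalized count, Mrap2 ranked 6255 of 55536 in Pdgfrb-KO, 24969 in 12-month-old control and 20722 in 2-month-old control SVF.

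The targeted gene was lower in the Pdgfrb-KO libraries but far from absent. Pdgfrb had 1882, 2145, 1707 and 1749 normalized counts in Pdgfrb-KO SVF, against 3000, 4380, 3258 and 2399 in 12-month-old and 2536, 2367, 2349 and 2407 in 2-month-old control SVF. Every Pdgfrb-KO library was below every control library. The difference from the 12-month-old controls was -0.77 on the log2 scale (standard error 0.166, 95% interval -1.14 to -0.41, limma adjusted p = 0.016), and the exact two-sided permutation test over 70 regroupings gave p = 0.0286, the smallest it can give with 4 against 4. Whether the remaining reads came from cells without recombination or from exons outside the deleted part cannot be told apart here, and in unsorted SVF fewer cells of a type and less RNA per cell cannot be told apart either.

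Among genes as quiet as Mrap2 in the controls, none came up as far. A mean of 1.25 or less over the 8 controls, the level of Mrap2, was shared by 33182 genes, of which 26258 were at 0 in all 4 Pdgfrb-KO libraries. Only 12 of the 33182 had a Pdgfrb-KO mean of 10 or more, 2 had 50 or more and 1, Mrap2, had 500 or more. The second was Gm45104, an unconfirmed transcript with a mean of 103 in Pdgfrb-KO and 1.12 in control SVF, and the third was the interferon-induced gene Ifi44l (named after its values were seen), with 46.2 in Pdgfrb-KO and 0 in control SVF.

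**Figure D2:**
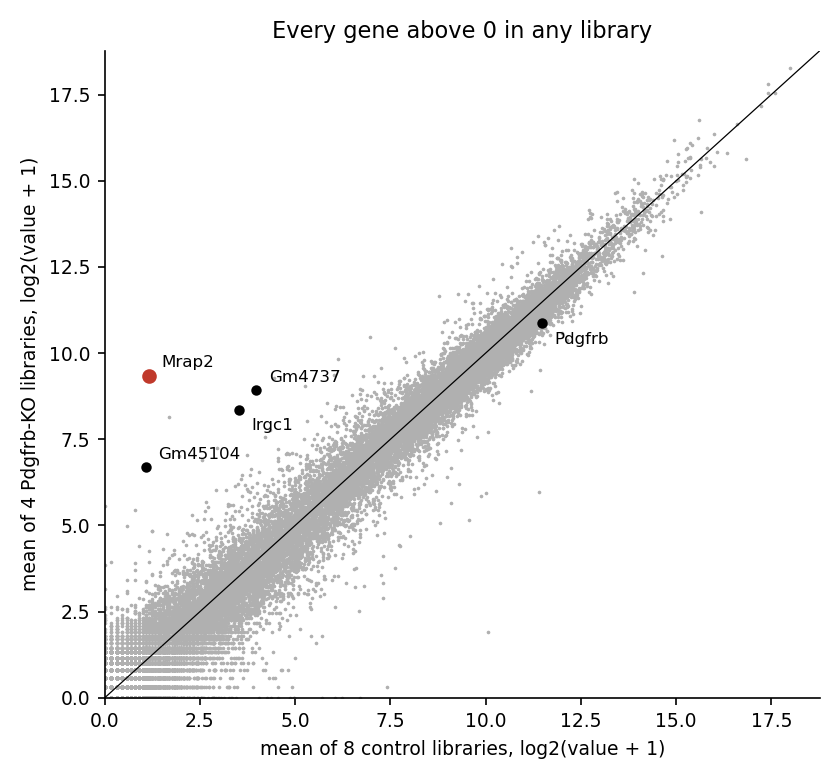
Mean of the 4 Pdgfrb-KO libraries (vertical) against the mean of the 8 control libraries (horizontal), both as log2(value + 1), with 1 grey point per gene above 0 in any library and a line of equality. Mrap2, in red, has a mean of 651 in Pdgfrb-KO and 1.25 in control SVF and stands farther above the line than Irgc1, Gm4737 and Gm45104, and Pdgfrb lies below the line.

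A likeness to Mrap2 was measured for each gene as the gap between the lowest Pdgfrb-KO library and the highest of the 8 control libraries, in log2(value + 1). This measure uses the values that chose Mrap2, so it orders the genes and tests nothing. Mrap2 had the largest gap of all 55536 genes, 5.87, and 8 genes had a gap of 3 or more. Next came Irgc1, an immunity-related GTPase, at 4.00, with 335, 303, 303 and 373 normalized counts in Pdgfrb-KO, 17, 9, 16 and 18 in 12-month-old and 11, 6, 4 and 3 in 2-month-old control SVF. Gm7292, a long noncoding RNA, had a gap of 3.93 and 75 to 202 normalized counts in Pdgfrb-KO against 3 to 4 in 12-month-old and 0 to 4 in 2-month-old control SVF. Both were on in all 4 Pdgfrb-KO libraries.

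Gm4737, a predicted coding gene, had a gap of 3.91, with 306, 663, 678 and 299 normalized counts in Pdgfrb-KO against 7 to 17 in 12-month-old and 14 to 19 in 2-month-old control SVF. Its Pdgfrb-KO libraries fell into pairs, replicates 2 and 3 above replicates 1 and 4, and this grouping was not that of Mrap2, where replicates 1 and 2 were high. Gm7292 was likewise highest in replicates 2 and 3, at 149 and 202, against 75 and 85 in replicates 1 and 4. Gm45104 followed at 3.75, the pseudogene Gm11868 at 3.65, the kallikrein gene Klk1b21 at 3.27 (28 to 34 normalized counts in Pdgfrb-KO, 0 to 2 in 12-month-old and 0 in 2-month-old control SVF) and the pseudogenes Tgif2-ps2 at 3.22, Gm10704 at 2.49, AC131675.2 at 2.46 and Gm20305 at 2.32. None of these 10 reached the level of Mrap2 in every Pdgfrb-KO library.

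**Figure D3:**
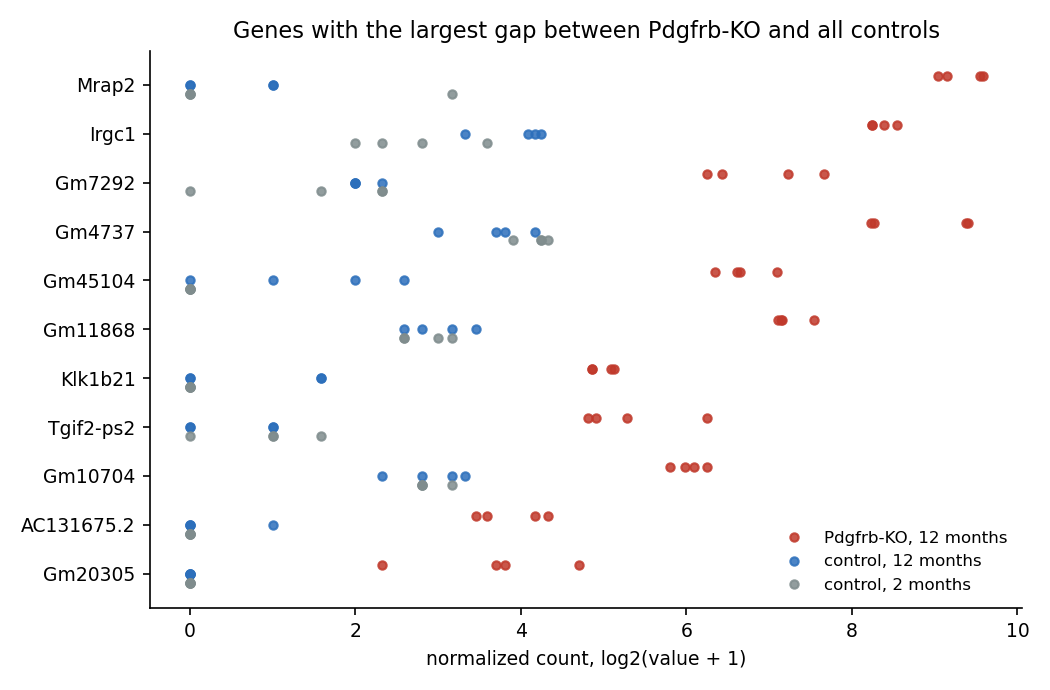
Normalized counts as log2(value + 1) (horizontal) of Mrap2 and the 10 genes with the next largest gap (rows, in order of the gap), 1 point per library, coloured by group. The Mrap2 row runs from 524 to 765 in Pdgfrb-KO libraries and from 0 to 8 in controls, and its gap of 5.87 exceeds the 4.00 of Irgc1.

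Just outside these 10 were the pseudogene Gm7993 (gap 2.22), the serotonin receptor gene Htr1b (2.01), the kallikrein genes Klk1b24 and Klk1b1 (2.00 each) and the pseudogene Gm7887 (1.90). Of the 15 genes after Mrap2, 5 lie on chromosome 7, which holds 8.5% of the genes listed and 10 of the 135 genes of the wider on-off rule given next, and these are Gm45104 at 18.4 Mb, Irgc1 at 24.4 Mb and Klk1b1, Klk1b21 and Klk1b24 at 44.0 to 44.2 Mb. Chromosome 9, that of Mrap2, had 1 of the 15, Htr1b. Reads of pseudogenes and of the closely similar Klk1b genes can be shared with related copies, so their single values are uncertain.

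A mean of at most 10 over the 8 controls together with at least 10 in every Pdgfrb-KO library was met by 135 of 55536 genes (0.243%), Mrap2 among them, of which 73 are protein coding and 29 are pseudogenes. In 60 of the 135, every Pdgfrb-KO library was above every control. The mirror pattern, a Pdgfrb-KO mean of at most 10 with at least 10 in every control, was met by 101 genes. Chromosome 9, which holds 5.15% of the genes listed, carried 14 of the 135. The one on chromosome 9 closest to Mrap2 was the unconfirmed transcript Gm38391, 5.39 Mb away, with a mean of 13.2 in Pdgfrb-KO and 9.5 in control SVF. Mrap2 was therefore the only gene of its stretch of chromosome to meet this rule.

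Genes around Mrap2 were then examined, in a window of 1 Mb to either side. It holds 34 other listed genes, of which 10 passed the filter on low values (at least 10 in 4 of 8 libraries). Of these 10, 1 was higher and 0 were lower in limma in Pdgfrb-KO than in 12-month-old control SVF, and 9 did not pass. That is a share close to the 9.42% of all genes tested. With an unadjusted p under 0.05, 1 was higher and 3 were lower. The share of all genes at that unadjusted limit is not given. Such unadjusted counts, here and below, therefore cannot be judged against a background. The median log2 difference of the 10 was 0.06, and that of all genes tested was -0.01.

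The nearest tested gene on the upstream side, Cyb5r4, a cytochrome b5 reductase gene whose end lies 66.5 kb before the start of Mrap2, had 890, 947, 1006 and 930 normalized counts in Pdgfrb-KO against 997, 1035, 1024 and 1112 in 12-month-old control SVF. Its log2 difference was -0.14 (95% interval -0.35 to 0.06, limma adjusted p = 0.348). On the other side lies Cep162, a gene of centrioles on the opposite strand, which runs towards Mrap2 and ends 5.5 kb past the end of it. Cep162 had 328, 271, 404 and 416 in Pdgfrb-KO against 375, 279, 430 and 345 in 12-month-old control SVF. Its log2 difference was -0.01 (95% interval -0.40 to 0.37, limma adjusted p = 0.969). Both intervals include 0, and neither excludes a modest change of the flanking gene. The 2 listed genes that lie closer still were at or near 0, Gm8282 at 0 in all 12 libraries and Gm37012 at 0 in Pdgfrb-KO and 12-month-old control libraries and at up to 3 at 2 months.

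Pgm3, an enzyme of the hexosamine pathway that makes UDP-N-acetylglucosamine, was the neighbour that rose. It lies 572.5 kb before Mrap2 and had 740, 707, 806 and 773 normalized counts in Pdgfrb-KO, against 367, 427, 454 and 499 in 12-month-old and 316, 396, 361 and 337 in 2-month-old control SVF. All 4 Pdgfrb-KO libraries were above all 8 controls, and the log2 difference from the 12-month-old controls was 0.80 (standard error 0.117, limma adjusted p = 0.00224, and 0.00148 to 0.0091 over 16 alternatives). Its last 1547 bases overlap Dop1a on the opposite strand, which had 532, 566, 949 and 936 normalized counts in Pdgfrb-KO against 1022, 842, 1160 and 944 in 12-month-old control SVF (log2 difference -0.45, limma adjusted p = 0.174). The library kit keeps the strand, but whether the counting used it is not given in the sources used here, so reads of the shared stretch may be assigned to either gene.

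The other tested neighbours did not pass. Me1, the cytosolic malic enzyme, averaged 338 in Pdgfrb-KO and 451 in 12-month-old control SVF (log2 difference -0.42, limma adjusted p = 0.0867), and Tbx18, a transcription factor gene of mural cells, averaged 182 and 246 in the same order (-0.42, limma adjusted p = 0.115). Snap91, Ube2cbp, Rwdd2a and Gm17530 had log2 differences between 0.14 and 0.55. Prss35, a protease-like gene, stayed under the filter with means of 4.25 in Pdgfrb-KO and 8.75 in 12-month-old control SVF, and the 4 tested genes within 500 kb included none that passed.

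**Figure D4:**
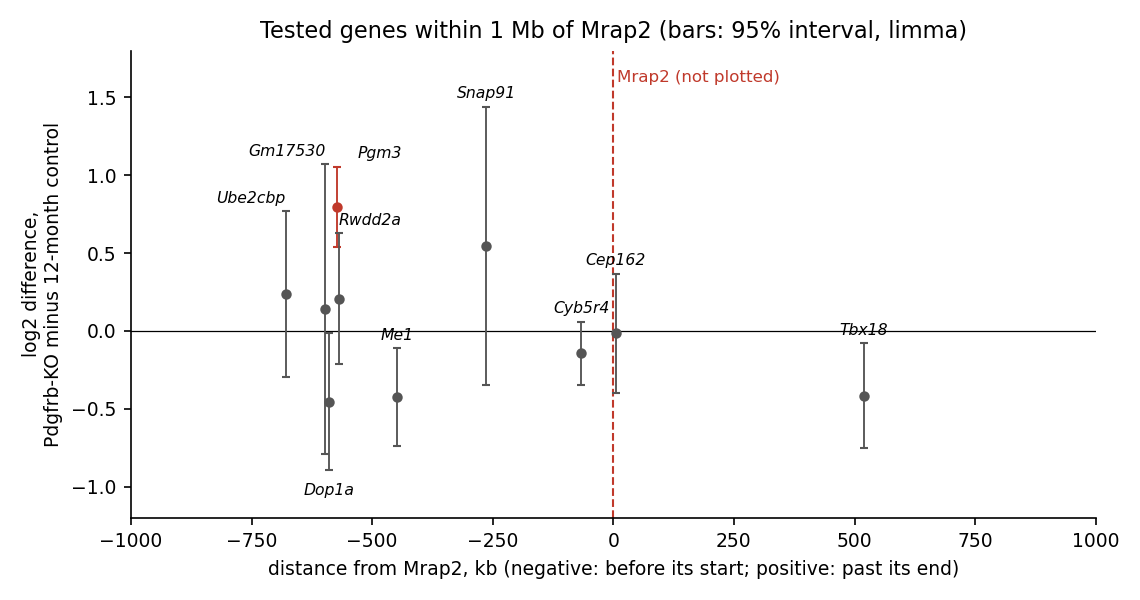
Log2 difference between Pdgfrb-KO and 12-month-old control SVF (vertical, with the 95% interval from limma, n = 4 each) for the 10 tested genes within 1 Mb, against their distance from Mrap2 in kb (horizontal). Pgm3, in red, is the 1 gene past the threshold at 0.80, and the flanking genes Cyb5r4 and Cep162 lie at -0.14 and -0.01. Mrap2 itself, at 8.83, is marked by the dashed line only.

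With age in controls, 1 of the same 10 neighbours was higher and 1 was lower, against 11.3% and 11.4% of all genes. Tbx18 was higher at 12 months than at 2 months (log2 difference 0.58, limma adjusted p = 0.0171) and Dop1a was lower (-0.45, limma adjusted p = 0.0168).

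The receptors that MRAP2 acts on were at low levels in this SVF. Among the 5 melanocortin receptors, Mc3r was at 0 in all 12 libraries, and Mc4r, the receptor through which Mrap2 is best known, was at 0 in all 4 Pdgfrb-KO libraries and above 0 in 2 of 12, with at most 5 normalized counts. Mc2r, the ACTH receptor, had at most 5. Mc5r, a receptor of glands and adipocytes, had 24, 8, 4 and 4 in Pdgfrb-KO against 13, 20, 11 and 18 in 12-month-old control SVF, with wide overlap (log2 difference -0.89, limma adjusted p = 0.299). Mrap had 21, 45, 34 and 36 in Pdgfrb-KO against 26, 36, 25 and 22 in 12-month-old control SVF (0.28, limma adjusted p = 0.574). Of the 6 genes in this list, 2 passed the filter and 0 passed the threshold in limma, with 0 at an unadjusted p under 0.05.

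Mc1r, the receptor of pigment cells, was the exception in its pattern. It had 2, 0, 0 and 2 normalized counts in Pdgfrb-KO, against 27, 22, 10 and 5 in 12-month-old and 23, 28, 17 and 12 in 2-month-old control SVF, so that its groups did not overlap in the direction opposite to Mrap2. It did not pass the filter. In a fit without the filter, over 32597 genes, its log2 difference was -3.05 (standard error 0.625, limma adjusted p = 0.00501). The gene ends 679 bases before Tubb3, a tubulin gene on the same strand that was also lower in Pdgfrb-KO (60, 66, 45 and 81 normalized counts against 185, 122, 103 and 102 in 12-month-old control SVF, log2 difference -0.998, limma adjusted p = 0.03).

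Other receptors linked to MRAP2 gave little more. Ghsr, the ghrelin receptor, and Prokr2 had at most 3 normalized counts in any library, Mchr1 at most 6 and Hcrtr1 at most 15. Prokr1, a prokineticin receptor, was the only one past the filter, with 30, 32, 51 and 30 normalized counts in Pdgfrb-KO against 51, 39, 108 and 49 in 12-month-old control SVF (log2 difference -0.70, limma adjusted p = 0.202). Ghrl, the gene of ghrelin, had 3, 1, 7 and 6 in Pdgfrb-KO against 11, 17, 12 and 12 in 12-month-old control SVF. These did not overlap, and the difference of -1.59 had a limma adjusted p of 0.0684. In this list of 10 genes, 2 passed the filter and 0 passed the threshold in limma, with 1, Ghrl, at an unadjusted p under 0.05.

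**Figure D5:**
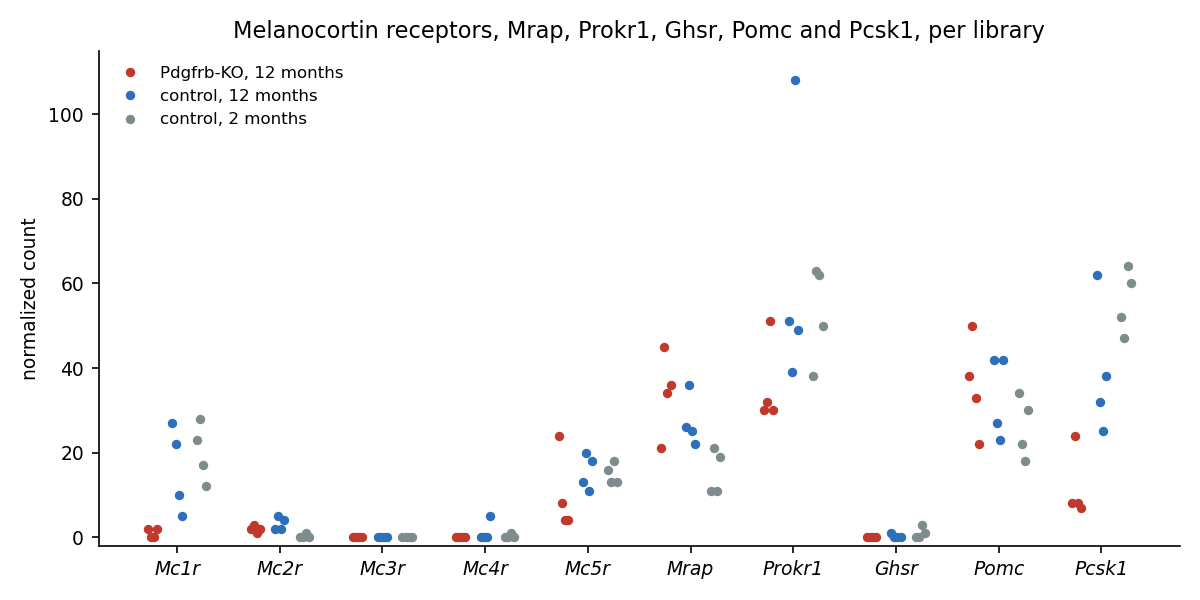
Normalized counts (vertical) of the 5 melanocortin receptors, Mrap, Prokr1, Ghsr, Pomc and Pcsk1 in each of the 12 libraries, coloured by group. Mc2r, Mc3r, Mc4r and Ghsr lie between 0 and 5 in every library, Mc1r between 0 and 2 in Pdgfrb-KO and 5 and 28 in control libraries, and Pcsk1 between 7 and 24 in Pdgfrb-KO and 25 and 64 in control libraries.

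Melanocortin peptides are cut from the Pomc precursor by Pcsk1 and trimmed by Cpe. Pomc itself had 38, 50, 33 and 22 normalized counts in Pdgfrb-KO against 42, 27, 23 and 42 in 12-month-old control SVF (log2 difference 0.08, limma adjusted p = 0.895). Agrp, the gene of a melanocortin antagonist, averaged 2.0 in Pdgfrb-KO and 1.75 in 12-month-old control SVF. Of 9 listed genes of this group, 7 were tested, with 0 higher, 2 lower and 5 short of the threshold. Pcsk1 fell to 8, 24, 8 and 7 normalized counts in Pdgfrb-KO, against 62, 32, 25 and 38 in 12-month-old control SVF (log2 difference -1.76, standard error 0.426, limma adjusted p = 0.0273), and Cpe to 1352, 1529, 1034 and 1093, against 1770, 2303, 1791 and 1564 (-0.57, limma adjusted p = 0.0419). Neither call held without some single libraries. Pcsk1 had an adjusted p of 0.0579 to 0.0855 without Pdgfrb-KO replicate 1 or 3 or without 12-month-old control replicate 1, 2 or 4, and Cpe had 0.0699 to 0.101 without Pdgfrb-KO replicate 1, 3 or 4 or without 12-month-old control replicate 1, 2 or 3.

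Melanocortin receptors act through cAMP, so genes of that pathway were listed too. The 28 components were all tested, and in Pdgfrb-KO 2 were lower, 26 were not past the threshold and 0 were higher in limma, with 1, the kinase subunit gene Prkar1a, higher at an unadjusted p under 0.05 (log2 difference 0.29, limma adjusted p = 0.161, and 0.0494 without Pdgfrb-KO replicate 4). Pde8a, a cAMP phosphodiesterase, had 700, 790, 779 and 786 normalized counts in Pdgfrb-KO against 1050, 1366, 1117 and 1002 in 12-month-old control SVF (log2 difference -0.56, limma adjusted p = 0.013). Pde3a, another phosphodiesterase, had 651, 633, 685 and 478 in Pdgfrb-KO against 852, 914, 934 and 722 in 12-month-old control SVF (-0.49, limma adjusted p = 0.0471). Its call was lost, at an adjusted p of 0.0695 to 0.131, without Pdgfrb-KO replicate 1, 2 or 4 or without 12-month-old control replicate 1, 2 or 3. Gnas, the gene of the stimulatory G protein, averaged 19460 in Pdgfrb-KO and 17010 in 12-month-old control SVF (0.19, limma adjusted p = 0.306).

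Genes that cAMP is known to induce formed a further list. Of the 9 tested, 0 passed as higher, 1 passed as lower and 8 stayed short of the threshold. Of all genes tested, 4.96% were higher and 4.46% lower. In so short a list, 0 higher does not depart from that share. The nuclear receptor gene Nr4a2 fell to 1547, 1476, 1800 and 1214 normalized counts in Pdgfrb-KO, against 2286, 2227, 2511 and 2196 in 12-month-old control SVF (log2 difference -0.62, limma adjusted p = 0.0114), and Nr4a1 averaged 20020 in Pdgfrb-KO and 19720 in 12-month-old control SVF (0.01, limma adjusted p = 0.962). Pck1 had a log2 difference of 0.33 (limma adjusted p = 0.235), and the thermogenic gene Ucp1 stayed under the filter, with means of 5.75 in Pdgfrb-KO and 10.5 in 12-month-old control SVF.

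Over the 5 lists together, 0 of 48 tested genes were higher in Pdgfrb-KO SVF by limma, where 4.96% of all genes were, and 5 were lower, where 4.46% were. At an unadjusted p under 0.05 the numbers were 1 and 13, which cannot be set against the shares of adjusted calls. Their median log2 difference was -0.19, against -0.01 for all genes. That count of 5 was 3 without Pdgfrb-KO replicate 1 or 12-month-old control replicate 3, and 2 without 12-month-old control replicate 1 or 2. With age in controls, 4 of 50 were higher and 12 were lower, where 11.3% and 11.4% of all genes were.

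Genes of tissues in which Mrap2 is usually found ranged from absent to present in every library. The adrenal enzymes Hsd3b1 and Cyp11b1 had at most 0 and 3 normalized counts in any library. Star and Cyp11a1 of the same list were present in every library. Star averaged 49.25 in Pdgfrb-KO and 46.0 in 12-month-old control SVF, and Cyp11a1 averaged 84.0 and 104. The 6 adrenal cortex genes summed to 104 to 169 in Pdgfrb-KO, 126 to 191 in 12-month-old and 109 to 131 in 2-month-old control SVF. Of these, 0 of 2 tested genes passed the threshold in limma (0 at an unadjusted p under 0.05). The insulin gene Ins1 and Th, a catecholamine synthesis gene of chromaffin cells, were at 0 in all 12 libraries, while the islet genes Ins2 and Gcg had at most 3 and 10 normalized counts. The 9 islet and chromaffin genes summed to 19 to 34, 25 to 59 and 18 to 27 in the same order, and 0 of 1 passed in limma (Chga was lower at an unadjusted p under 0.05). Their means differed in both directions. Chgb averaged 7.0 in Pdgfrb-KO and 3.25 in 12-month-old control SVF, and Scg2 6.25 and 2.0. Gcg averaged 3.75 and 7.75, and Chga 9.0 and 20.5, in the same order. Snap25, a gene of synapses, had at most 4. The 9 neuronal genes summed to 358 to 768 in Pdgfrb-KO, 475 to 601 in 12-month-old and 445 to 566 in 2-month-old control SVF, most of it Stmn2. Of 6 tested, 3 were lower in Pdgfrb-KO (Tubb3, Nefl and Nefm), where 4.46% of all genes tested were.

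Other markers did move with the group in which Mrap2 was high. The 5 macrophage genes summed to 35272 to 55086 in Pdgfrb-KO, 19032 to 28351 in 12-month-old and 9670 to 14121 in 2-month-old control SVF. In limma, 4 of 5 were higher in Pdgfrb-KO than in 12-month-old control SVF, where 4.96% of all genes tested were. The 4 skeletal muscle genes summed to 380 to 1088 in Pdgfrb-KO, 1818 to 4547 in 12-month-old and 1299 to 5419 in 2-month-old control SVF. All of them, 4 of 4, were lower in Pdgfrb-KO, where 4.46% of all genes tested were. Krt5 and Krt14 of basal epithelium were at 0 in all 4 Pdgfrb-KO libraries, against 3 to 319 and 5 to 532 in 12-month-old control SVF. Neither passed the filter. In the fit without the filter, Krt5 had a log2 difference of -5.60 (limma adjusted p = 0.0165) and Krt14 of -6.18 (limma adjusted p = 0.022). The 5 epithelial genes summed to 109 to 183 in Pdgfrb-KO, 123 to 1342 in 12-month-old and 289 to 1757 in 2-month-old control SVF, with 1 of 3 tested lower. The part of these cells in the level of Mrap2 was not tested.

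The remaining marker lists showed smaller shifts. The 11 mural genes include the Sma gene Acta2, but their sum does not measure the cells in which the Sma promoter is active. They summed to 25493 to 32419 in Pdgfrb-KO, 30373 to 52210 in 12-month-old and 48547 to 55503 in 2-month-old control SVF. Between Pdgfrb-KO and 12-month-old controls, 0 of 11 passed the threshold in limma (6 were lower at an unadjusted p under 0.05). In the same comparison 0 of 5 endothelial genes passed in limma (2 were lower at an unadjusted p under 0.05). Lower were 1 of 8 Schwann cell genes, 3 of 10 progenitor genes and 1 of 9 mature adipocyte genes, and 1 of 6 lymphocyte genes was higher. Of all genes tested, 4.46% were lower and 4.96% higher, and a single gene of so short a list cannot be set against such shares. The 4 mesothelial genes did not pass the filter, with sums of 13 to 26 in Pdgfrb-KO, 12 to 19 in 12-month-old and 10 to 49 in 2-month-old control SVF.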

How the data were processed

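Per the labels and the methods of the study, reads of polyadenylated RNA were trimmed with Trim Galore 0.6.0, mapped to GRCm38 with STAR 2.7.0e and counted per gene. The deposited values are a score made by the authors, counts divided by DESeq2 1.26.0 size factors and rounded to whole numbers. Of 2 tables, one holds controls of both ages, the other 12-month-old controls and Pdgfrb-KO. The 12-month-old values agreed between the tables for 100% of genes, so all 12 libraries were read together. Gene names differed in 27 cases and 1 identifier was corrected. Left out were 4 lines with no gene and 5 empty columns, and other columns of per-sample values numbered 0. Coordinates (counted from 1) are from GENCODE vM21, which holds 55450 of 55536 identifiers.

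Groups came from the titles of the samples. Each comparison was fitted on its 8 libraries with limma 3.58.1 (R 4.3.3) on log2(value + 1), with trend and robust estimation, two-sided, for genes with at least 10 in at least 4 libraries. Any 2 libraries of a group differed by more than sampling noise. Tables and figures used matplotlib 3.10.9, scipy 1.17.1, pandas 2.3.3 and numpy 2.4.6 under Python 3.11.15, and the tests were checked on simulated data. Size factors were estimated by a Poisson fit to the low values. Mrap2 and the lists were chosen with earlier results of these data known. Named genes were Mrap2, Pdgfrb and list members past the threshold, with others of the same lists. Named too were genes within 1 Mb of Mrap2, the 10 genes with the next largest gap and the 5 after them. Alternatives were pseudocounts of 0.5 and 5, no filter, a mean of at least 50, median ratio and quantile scaling, limma without trend and robust estimation, a replicate block, leaving out each library, windows of 500 kb and 2 Mb, and other limits for the on-off rule.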

Additional observations from a re-analysis of the deposited data

Results flagged for a closer look

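A library far from the other 3 of its group was looked for in Mrap2, Pdgfrb, the neighbours, the genes of largest gap and the receptor and Pomc genes. These made 81 groups of 4 in all, of which 10 were marked. For normally distributed values, chance marks about 1 in 20. Low whole numbers with ties, such as 3, 3, 3 and 4, are marked more readily, so the number marked cannot be set against that rate. Mrap2 itself had 8 normalized counts in 2-month-old control replicate 1 and 0 in the other 3 libraries of that group. It was the only control library with more than 1.

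Among the neighbours, Ube2cbp had 58 in 12-month-old control replicate 4 against 36 to 37 in the others, Cyb5r4 981 in 2-month-old replicate 4 against 877 to 886, and Snap91 4 in 2-month-old replicate 4 against 11 to 12. Among the genes of large gap, Gm11868 had 185 in Pdgfrb-KO replicate 3 against 137 to 142. At low values the differences were of 1 or 2 normalized counts, with Gm7292 at 4 in 12-month-old replicate 1 against 3, AC131675.2 at 1 in 12-month-old replicate 1 against 0, and Gm10704 at 8 in 2-month-old replicate 2 against 6. Pcsk1 had 24 in Pdgfrb-KO replicate 2 against 7 to 8, and Prokr1 51 in Pdgfrb-KO replicate 3 against 30 to 32.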

How the results depend on the processing

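The difference in Mrap2 between Pdgfrb-KO and 12-month-old control SVF, 8.83 on the log2 scale, was 9.54 with a pseudocount of 0.5 and 6.88 with 5, since the controls lie at the pseudocount, and 8.66 to 9.0 with any library left out. The difference with age, -0.29, ran from -0.56 to 0.50 when a library was left out. The 135 genes of the on-off rule became 3 with a control mean of at most 5 and at least 50 in every Pdgfrb-KO library (Mrap2, Gm45104 and Gm7292), and 164 to 221 without 1 Pdgfrb-KO library. In alternatives chosen after seeing the data they were 24 with only the first of these limits, 5 with only the second and 128 with 12-month-old controls only. Mrap2 had the largest gap in each of these settings for which the gap was recomputed (12-month-old controls only, and each Pdgfrb-KO library left out). The 1 neighbour past the threshold, Pgm3, was 0 in a window of 500 kb, which does not reach it, and 2 in a window of 2 Mb, which adds the noncoding 9330159M07Rik, lower in Pdgfrb-KO and named after its values were seen. In the window of 1 Mb the count was 1 in every other alternative. The 5 listed melanocortin and cAMP genes were 3 in limma without trend and robust estimation and 2 to 5 without 1 library. Pde3a and Cpe also lost the call in limma without trend and robust estimation, and Pde3a without the filter. Cep162, at -0.01, ran from -0.13 to 0.11 with a library left out and changed sign without Pdgfrb-KO replicate 1 (0.02) or 2 (0.11) and without 12-month-old replicate 1 (0.02) or 3 (0.08), always far from the threshold. Pdgfrb kept its call in 16 alternatives, as did Pgm3, Pde8a and Nr4a2.

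The number of genes past the threshold ran from 859 to 1878 for Pdgfrb-KO and from 2356 to 3961 for age with 1 library left out. With the replicate block it was 2380 for Pdgfrb-KO, against 1539. Same-numbered libraries did not all deviate together (correlations of -0.018, 0.375, 0.234 and -0.003 over replicates 1 to 4), and not every library matched its own number best, so the samples share only a number. Normalized values near 0, such as those of Mrap2 in controls, rest on single counts, which limits what can be said of age.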
